A study of Mus musculus with 96 samples.

Results

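The hemisphere opposite to the occluded artery was examined in diabetic mice, to see whether a stroke changes gene expression in brain tissue that was not itself made ischemic. The 12 arrays were chosen by their labels as the contralateral (CL, left) hemisphere of diabetic mice, out of 96 arrays in the whole series. All 12 mice were males of the BKS-Leprdb/db/JOrlRj strain aged 8 to 12 weeks, so that MCAO mice and sham-controls shared the Leprdb/db genotype, a loss of the long leptin receptor that brings obesity and diabetes. In 8 mice a filament closed the right middle cerebral artery for 90 min (middle cerebral artery occlusion, MCAO), and brains were taken 30 min after it was withdrawn, 2 h after onset. In 4 sham mice the same surgery was done with no filament, under the same anesthesia and analgesia. Each array came from 1 mouse, from the left part of the brain slice whose right part (ipsilateral, IP) held the infarct core, after the blood had been washed out with saline. No lean BKS mice were used. The mice used below for comparison were C57BL/6J males, the old ones aged 18 months and the young ones 8 to 12 weeks. Diabetes and strain cannot be told apart there, and against the old mice age cannot be told apart either.

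Occlusion starves a territory of the brain of blood, and within minutes neurons there switch on immediate early genes, transcription factors such as Fos and Npas4 that are normally started by synaptic activity, calcium and MAP kinase signals. Endothelium, astrocytes and microglia follow with chaperones, chemokines and cytokines. The opposite hemisphere keeps its blood supply, but can be reached through callosal fibres, by seizure activity, by stress hormones and by circulating signals. It is commonly used as a control for the injured side.

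Expression was read as log2 signal, on which a difference of 1 is a doubling, for 19505 genes with 1 probe set each. The arrays were much alike, with a median correlation of each with the other arrays between 0.984 and 0.989. MCAO mouse 5 stood apart on the first principal component (15.9% of the variance) with a median signal of 6.67, against 6.88 to 6.97 in the other 11 arrays, and sham mouse 4 stood apart on the second (12.7%). The tissue carried the markers of brain: Snap25, a synaptic vesicle fusion protein of neurons, lay between 13.04 and 13.28 in all 12 arrays. Haemoglobin genes were not among the genes named here, and the neutrophil markers lay between 4.27 and 4.49 in MCAO mice and between 4.31 and 4.52 in sham mice, as a mean over 16 genes.

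Few genes separated the 2 groups. In limma with Benjamini-Hochberg adjustment over all genes, 4 of 19505 genes passed an adjusted p of 0.25, the threshold of the study, which is 0.0205% of those tested, and all 4 were lower in MCAO than in sham mice. None passed 0.05. Without adjustment 849 genes (4.35%) had a p under 0.05, fewer than the 975 that this threshold lets through when nothing differs, and they were split into 211 higher (1.08%) and 638 lower (3.27%). This lean towards lower genes depended on the scaling: higher genes made up 24.9% of the 849, but 51.8% of 892 after quantile normalization and 44.2% of 835 after centring each array on its median. The median difference over all genes was -0.03, and the median 95% confidence interval reached 0.317 to either side of the estimate. The 4 calls were not stable, since quantile normalization or centring left 0, and leaving out 1 mouse gave between 0 and 13 (13 without sham mouse 1, 0 without MCAO mouse 2, 3, 6 or 8 or sham mouse 3 or 4). In simulated arrays of the same number and spread, 50 genes each were changed by 0.5, 1, 2 or 3 on the log2 scale. There this test called 92% of genes changed by 1 and 62% of genes changed by 0.5, along with 74 unchanged genes. Many large changes at once ease the adjusted threshold, so these rates do not carry over to data with few changed genes.

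The gene with the smallest p was Thegl, a testis gene related to the spermatid protein Theg. Its signal was 3.98, 3.35, 4.23 and 3.84 in sham mice 1 to 4 and 3.23, 2.74, 2.69, 2.47, 2.76, 2.69, 2.81 and 2.51 in MCAO mice 1 to 8. All MCAO mice lay below all sham mice, with a difference of -1.11 (SE 0.16, adjusted p = 0.138). All 8 MCAO mice were below all 4 sham mice in 43 genes, 0.22% of all genes, and above them in 17 genes, 0.0872%. Among 19505 genes some separate in this way by chance, so it does not by itself mark a gene as changed. In the IP hemisphere of the same mice Thegl differed by 0.33 (adjusted p = 0.575). There it lay between 2.56 and 2.91 in sham mice, below their CL values, and between 2.58 and 4.24 in MCAO mice.

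Adamts5 encodes a secreted protease that cuts aggrecan and related proteoglycans of the extracellular matrix. It was measured at 5.80, 5.43, 5.88 and 5.68 in sham mice and at 5.02, 5.00, 4.83, 5.34, 4.52, 4.66, 4.61 and 4.74 in MCAO mice. The groups did not overlap, as in 0.22% of all genes in this direction, MCAO mouse 4 being closest to sham mouse 2. The difference was -0.86 (SE 0.15, adjusted p = 0.223). In the IP hemisphere of the same mice Adamts5 differed by 0.05 between MCAO and sham (adjusted p = 0.921).

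Cd69, an early activation marker of lymphocytes, was at 2.30, 2.82, 2.51 and 2.60 in sham mice and between 1.71 and 2.11, with a median of 1.87, in MCAO mice (-0.67, SE 0.12, adjusted p = 0.223). Olfr761, an olfactory receptor gene, was at 3.35, 3.69, 4.21 and 3.94 in sham mice and between 2.35 and 3.26, with a median of 2.70, in MCAO mice (-1.05, SE 0.18, adjusted p = 0.223). Neither gene overlapped between the groups, as in 0.22% of all genes in this direction. The signal of Thegl, Olfr761 and Cd69 was low, at the 9.84, 9.72 and 1.27 percentile of all genes, where a probe set may report little but background, and that of Adamts5 lay at the 31.2 percentile. The mean signal of 1399 olfactory and vomeronasal receptor genes, which are mostly silent in brain, was 3.01 to 3.21 in the 12 arrays. Of these receptors 110 had an unadjusted p under 0.05 with a lower signal in MCAO mice and 9 with a higher signal (3.27% and 1.08% of all genes), and their median difference was -0.07 against -0.03 over all genes. After quantile normalization 66 were lower and 29 higher, with a median of -0.01. The next lower gene was Morc1, a silencer of transposons in germ cells, at -0.66 (SE 0.13, adjusted p = 0.563), also at a low signal.

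**Figure D1:**
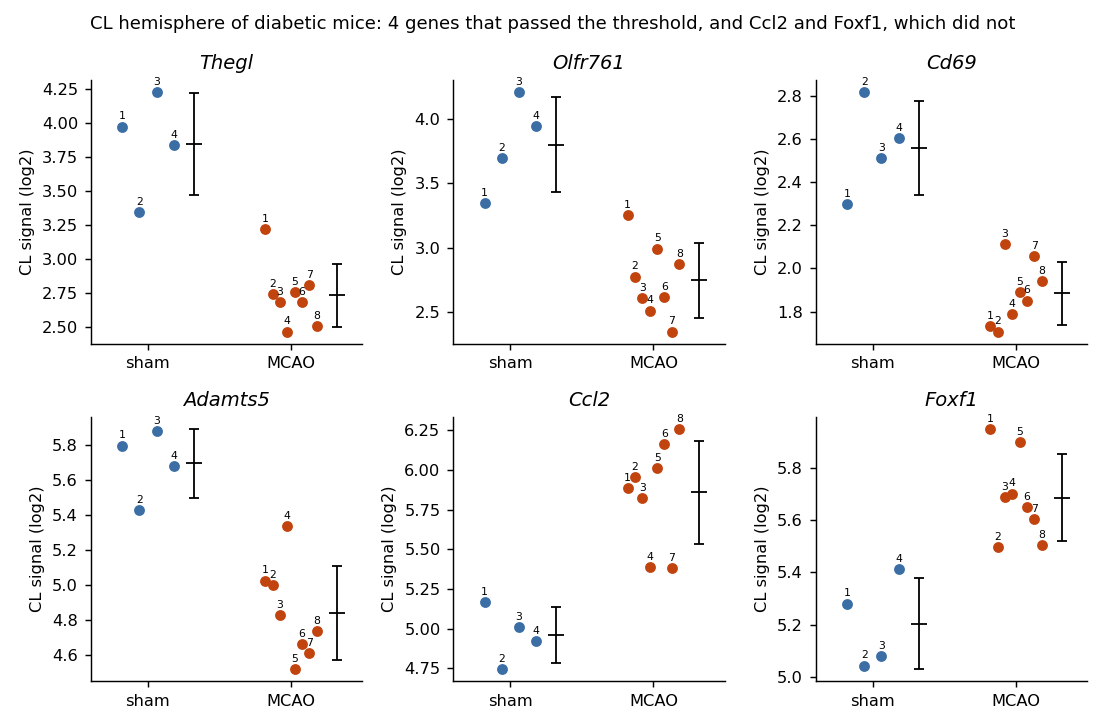
CL signal (log2) of the 4 genes that passed the adjusted p of 0.25 and of Ccl2 and Foxf1, which did not, with 1 point per mouse numbered as in the text (sham blue, MCAO orange) and the mean ± SD beside the points. The groups do not overlap in any of the 6 panels, and the 4 called genes are lower in MCAO mice while Ccl2 and Foxf1 are higher. Over all genes, 0.22% were lower and 0.0872% higher in all MCAO mice than in all sham mice.

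No gene passed the threshold in the upward direction. The smallest p there belonged to Ccl2, the chemokine that draws monocytes into inflamed tissue through the receptor Ccr2. Its signal was 5.17, 4.75, 5.01 and 4.92 in sham mice and 5.89, 5.96, 5.83, 5.39, 6.01, 6.16, 5.38 and 6.26 in MCAO mice. Every MCAO mouse lay above every sham mouse, as in 0.0872% of all genes. The difference of 0.90 (SE 0.17, 95% confidence interval 0.54 to 1.25) is a 1.86-fold signal, with an adjusted p of 0.334. Leaving out MCAO mouse 4, MCAO mouse 7 or sham mouse 1 brought Ccl2 under 0.25, with adjusted p-values of 0.155, 0.202 and 0.226. These mice held the values nearest the other group, so leaving out any of them had to widen the difference. Ccl2 was called only in these 3 of 22 alternatives, over which its adjusted p ran from 0.155 to 0.893. On the IP side of the same mice the difference of Ccl2 was 1.75 (adjusted p = 0.00814).

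Foxf1, a forkhead factor of vessel-associated mesenchyme and endothelium, also had all MCAO mice (5.50 to 5.95) above all sham mice (5.04 to 5.41), with a difference of 0.48 and an adjusted p of 0.778. It is 1 of the 17 genes, 0.0872% of all genes, with this order. The other 3 of the 5 genes with the smallest p in this direction were the pseudogene Ppp1r2-ps7 (0.64, adjusted p = 0.531), the chemokine receptor gene Ccr8 (0.60, adjusted p = 0.778) and the predicted gene Gm15319 (0.75, adjusted p = 0.778). In Ccr8 sham mouse 4, at 3.65, lay within the range of the MCAO mice, which was 3.50 to 4.17.

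Immediate early genes differed widely among the MCAO mice, with a median SD of 0.47 against 0.24 over all genes, a spread exceeded among the 36 lists only by the choroid plexus and ependymal markers (1.17). None of the 32 genes passed the threshold, but 25 had a difference above 0, where 39.8% of all genes did, and their median was 0.27. After quantile normalization 26 of the 32 were above 0, against 49.7% of all genes. The 19 activity-regulated neuronal genes, a separate list that holds Npas4, Ptgs2 and Arc, had 14 genes above 0, a median of 0.06 and none with an unadjusted p under 0.05. Npas4, a neuronal factor induced by calcium entry that starts the programme of inhibitory synapses, was at 7.85, 7.86, 7.24 and 7.68 in sham mice. In MCAO mice 1, 2 and 5 it was at 10.20, 9.68 and 11.48, and in MCAO mice 3, 4, 6, 7 and 8 at 7.04, 6.54, 7.31, 7.44 and 6.49. So 3 MCAO mice lay far above all sham mice, 3 lay below all of them, and the difference of the means, 0.61, had a confidence interval of -1.14 to 2.37 (adjusted p = 0.999). The SD of Npas4 was 1.90 over the MCAO mice and 0.29 over the sham mice.

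The same 3 mice were high in the Fos family, whose proteins pair with Jun to form the AP-1 factor. Fos was at 9.16, 9.23 and 9.73 in MCAO mice 1, 2 and 5, between 7.10 and 7.58 in the other MCAO mice, and at 7.16, 7.69, 7.17 and 7.93 in sham mice (difference 0.59, SE 0.49, adjusted p = 0.999). Fosb was at 9.67, 8.81 and 9.55 in these 3 mice, between 7.26 and 7.54 in the others and between 7.05 and 7.93 in sham mice (0.63, SE 0.46, adjusted p = 0.999). Ptgs2, the inducible cyclooxygenase, was at 9.55, 8.93 and 9.80 in MCAO mice 1, 2 and 5 and between 7.86 and 8.32 in the others, against 7.75 to 8.18 in sham mice (0.59, SE 0.35, adjusted p = 0.999). Arc, which acts at the synapse, was high in MCAO mouse 1 only, at 9.95, while sham mouse 4 was at 9.06, level with MCAO mouse 5.

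MCAO mice 1, 2 and 5 held the 3 highest of the 12 arrays in 14 of the 32 immediate early genes, among them Fos, Fosb, Junb, Egr1, Egr2, Egr4, Nr4a1, Btg2, Atf3, Zfp36 and Ccn1, and in 0.272% of all genes. They did so in 2 of the 19 activity-regulated genes, Npas4 and Ptgs2. These mice were picked after the values of Npas4 had been seen, so this count is a description. MCAO mouse 1 exceeded all sham mice in 27 of the 32 genes, MCAO mouse 2 in 21 and MCAO mouse 5 in 16, and the other 5 MCAO mice in 1 to 6. Over all genes the shares above all sham mice were 18.1%, 16.2% and 6.62% in MCAO mice 1, 2 and 5 and 14.3% to 20.6% in the others. The low share of mouse 5 came with its low overall signal, and mouse 1 had the lowest mean of the striatal markers (9.16). The part of tissue composition in these values was not tested.

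Ccn1 and Zfp36 were shifted more evenly. Ccn1, a secreted matrix protein of vessels and glia, was at 8.49, 8.95, 7.79, 7.36, 9.25, 8.11, 8.16 and 8.25 in MCAO mice and at 7.96, 7.37, 7.66 and 7.55 in sham mice. Here 6 of 8 MCAO mice were above all sham mice (0.66, SE 0.28, adjusted p = 0.999). Zfp36, which binds AU-rich mRNAs of cytokines and hastens their decay, had the largest positive difference of all 19505 genes. It was at 7.19, 7.35, 6.74, 6.21, 7.45, 5.97, 6.87 and 6.65 in MCAO mice and at 6.32, 5.76, 5.90 and 5.27 in sham mice, a difference of 0.99 (SE 0.27, adjusted p = 0.80). Klf2, a flow-responsive factor of endothelium, differed by 0.31 and Ccn2, a relative of Ccn1, by -0.29, neither past the threshold.

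**Figure D2:**
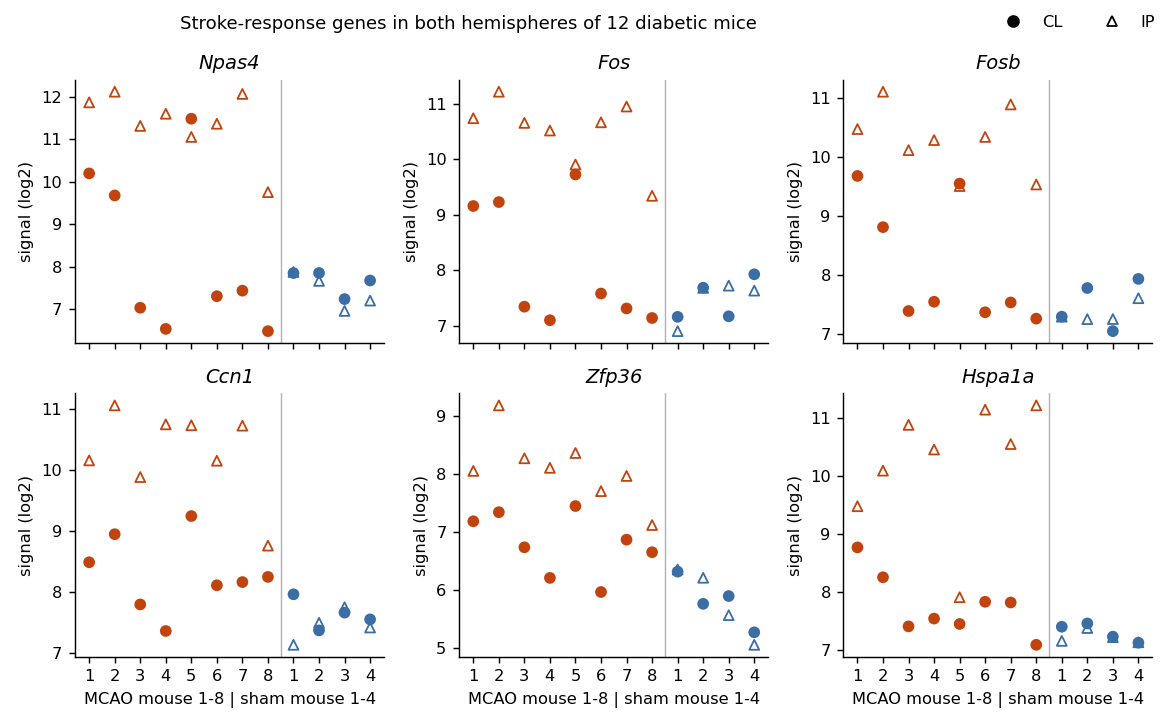
Log2 signal of 6 stroke-response genes in the CL (filled circles) and IP (open triangles) hemisphere of each mouse, MCAO mice 1 to 8 left and sham mice 1 to 4 right of the line. MCAO mice 1, 2 and 5 stand high in the CL hemisphere for Npas4, Fos and Fosb, while in the IP hemisphere all 8 MCAO mice are above the sham mice in every panel. The share of all genes with such an order in the IP hemisphere was not counted, so this only describes the genes shown.

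The stretches just upstream of 4 of these genes are shown because they held one of the short motifs through which activity and serum start transcription. The sequences are the 150 bases before the annotated start, on the gene's strand, from RefSeq (GRCm38.p6), and capitals mark TGACG on either strand, the core of the site bound by CREB and ATF factors, or the CArG box of serum response factor.
Fos, chr12:85473740-85473889, plus strand: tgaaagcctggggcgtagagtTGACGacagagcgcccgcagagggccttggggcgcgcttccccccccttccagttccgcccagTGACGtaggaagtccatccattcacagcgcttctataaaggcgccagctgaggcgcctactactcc
Fosb, chr7:19310046-19310195, minus strand: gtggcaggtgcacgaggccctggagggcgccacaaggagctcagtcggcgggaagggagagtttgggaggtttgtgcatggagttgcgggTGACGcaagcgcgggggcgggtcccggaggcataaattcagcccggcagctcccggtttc
Ccn1, chr3:145649986-145650135, minus strand: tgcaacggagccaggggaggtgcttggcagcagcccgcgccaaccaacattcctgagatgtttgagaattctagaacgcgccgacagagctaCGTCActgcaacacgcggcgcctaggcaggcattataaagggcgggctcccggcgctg
Zfp36, chr7:28379229-28379378, minus strand: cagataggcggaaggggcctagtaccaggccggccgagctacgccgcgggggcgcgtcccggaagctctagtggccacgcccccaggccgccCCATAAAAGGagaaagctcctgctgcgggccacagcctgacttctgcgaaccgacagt

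In the 250 bases upstream, TGACG was present in 15 of the 23 immediate early genes with a promoter in the table (65.2%), in 23.4% of the measured genes with one and in 17.8% of all promoters. The full palindrome TGACGTCA, which contains TGACG, was present in 2 of the 23 (8.7%) and in 2.27% of measured genes. The CArG box was present in 2 of the 23 (8.7%) and in 1.54% of measured genes, and in 1.47% of all promoters. The 150 bases before the start of Npas4 held none of these motifs. The matches are letters in a window and not evidence of binding in these mice.

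Genes that feed back on MAP kinase signals were mixed. Of 22 genes 1 was higher and 2 were lower at an unadjusted p under 0.05 (1.08% and 3.27% of all genes), and none passed the adjusted threshold. Dusp10, a phosphatase of p38 and JNK, was between 7.30 and 8.24 in MCAO mice and between 8.00 and 8.59 in sham mice (-0.55, SE 0.17, adjusted p = 0.996), with 7 MCAO mice below all sham mice. Errfi1, an inhibitor of the EGF receptor, differed by 0.40 and was above all sham mice in 6 MCAO mice. Gadd45b differed by 0.35, with 7 MCAO mice above all sham mice and mouse 1 highest at 8.35, and Rgs1 by -0.44. Of the same 22 genes 9 were called higher in the IP hemisphere, where 1.77% of all genes were.

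No heat shock gene of the list passed the threshold on the CL side. Hspa1a, the inducible chaperone Hsp70, was at 8.77 and 8.25 in MCAO mice 1 and 2 and between 7.08 and 7.83 in the other 6, against 7.12 to 7.45 in sham mice. In 5 of 8 MCAO mice it was above all sham mice (0.47, SE 0.24, adjusted p = 0.999). Its near-identical neighbour Hspa1b differed by 0.23, and the probe sets of this pair may share signal. Dnajb1 differed by 0.34 and Hsph1 by 0.16. None of 19 genes had an unadjusted p under 0.05, and the median was 0.06. A difference above 0 was found in 15 of them (78.9%), where 39.8% of all genes had one. After quantile normalization these shares were 84.2% and 49.7%.

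Outside Ccl2, no chemokine, cytokine or interferon response gene of the lists came near the threshold. The chemokine receptor gene Ccr8, given above, is not on these lists. Among 29 chemokines and receptors the median difference was -0.04 (0.02 after quantile normalization), with 2 genes, Ccl2 and Ccrl2, higher and 1 lower at an unadjusted p under 0.05 (1.08% and 3.27% of all genes). Ccl3, made by microglia and macrophages, ranged from 4.43 to 7.37 in MCAO mice, with 5 of 8 above all sham mice (4.36 to 6.13), and differed by 0.81 (SE 0.47, adjusted p = 0.999). Ccrl2, an atypical receptor that presents chemerin, was above all sham mice in 7 MCAO mice (0.57, SE 0.19, adjusted p = 0.996), and Ccl22 differed by -0.47. Among 24 cytokines Il1b differed by 0.01 (confidence interval -0.47 to 0.48), Il6 by 0.32 at a very low signal, and Tgfb1 by 0.27. The 26 interferon response genes had a median of 0.04, with Oasl1 at -0.52.

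The lists of leukocyte markers, which do not hold Cd69, gave no called gene. Of 16 neutrophil markers 8 had a difference above 0 and 8 below, with a median of 0.03, and of 13 lymphocyte markers 4 were above 0, with a median of -0.07. Over all genes 39.8% were above 0. The calprotectin gene S100a8 of neutrophils differed by -0.02 (confidence interval -0.80 to 0.77), Hp by -0.78 (SE 0.21, adjusted p = 0.80) and Retnlg by 0.47. Of the lymphocyte markers 2 were lower and none higher at an unadjusted p under 0.05 (3.27% and 1.08% of all genes). Cd3d differed by -0.75 (adjusted p = 0.996) and Gzma by -0.40 (adjusted p = 0.996). In Gzma all MCAO mice lay below all sham mice, as in 0.22% of all genes. Without sham mouse 1 Cd3d passed the threshold (-1.04, adjusted p = 0.149). That mouse, at 3.45, was the only sham mouse within the range of the MCAO mice (3.16 to 4.05), so leaving it out had to widen the difference. Both genes had a low signal, at the 17.2 and 20.3 percentile of all genes.

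No stress hormone or metabolic gene of the lists was called. Of 25 glucocorticoid targets 4 were higher at an unadjusted p under 0.05, where 1.08% of all genes were, Tiparp (0.43), Errfi1, the cell cycle inhibitor Cdkn1a (0.32) and the metallothionein Mt1 (0.29), while the median of the list was -0.02 (0.01 after quantile normalization or centring). Per2, a clock gene, differed by -0.49, and Atf4, the central factor of the integrated stress response, by 0.28 with 7 MCAO mice above all sham mice. Fkbp11, a chaperone-like protein of the secretory pathway, differed by -0.55. Apold1, an endothelial early response gene, was at 8.39, 8.46 and 8.00 in MCAO mice 1, 2 and 5 and between 7.00 and 7.35 in the others, against 6.51 to 7.38 in sham mice (0.70, SE 0.29, adjusted p = 0.999). Thbs1, an inhibitor of vessel growth, differed by 0.53.

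In the leptin and insulin pathway, which is altered from the start in these mice, 0 of 25 genes had an unadjusted p under 0.05 and the median was -0.06. Lepr ranged from 3.67 to 6.22 in MCAO mice and from 3.95 to 5.43 in sham mice (0.30, SE 0.40, adjusted p = 0.999), a level that does not test the genotype because all mice carry it. The growth factor gene Igf1 differed by -0.28 and Igfbp2, a binding protein of insulin-like growth factors, by -0.52.

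Genes of neuronal signalling and energy supply were nearly level. Gabrd and Gabra3, subunits of GABA-A receptors, differed by -0.32 and 0.28 with 7 of 8 MCAO mice beyond all sham mice in each, and 30 glutamate and GABA receptor genes had a median of -0.01. In 59 genes of the respiratory chain the median was -0.06, and Uqcr11 of complex III was lower in all MCAO mice (7.46 to 7.85) than in all sham mice (7.87 to 7.98), by 0.26 with an adjusted p of 0.999. Such separation was seen in 0.22% of all genes. In 60 cytosolic ribosomal protein genes the median was -0.02, in 45 ion channel genes -0.04 and in 167 zinc finger genes 0.00, with Zfp984 at 0.76. Among neuropeptides Pmch differed by -0.37 and Nmb by 0.42.

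**Figure D3:**
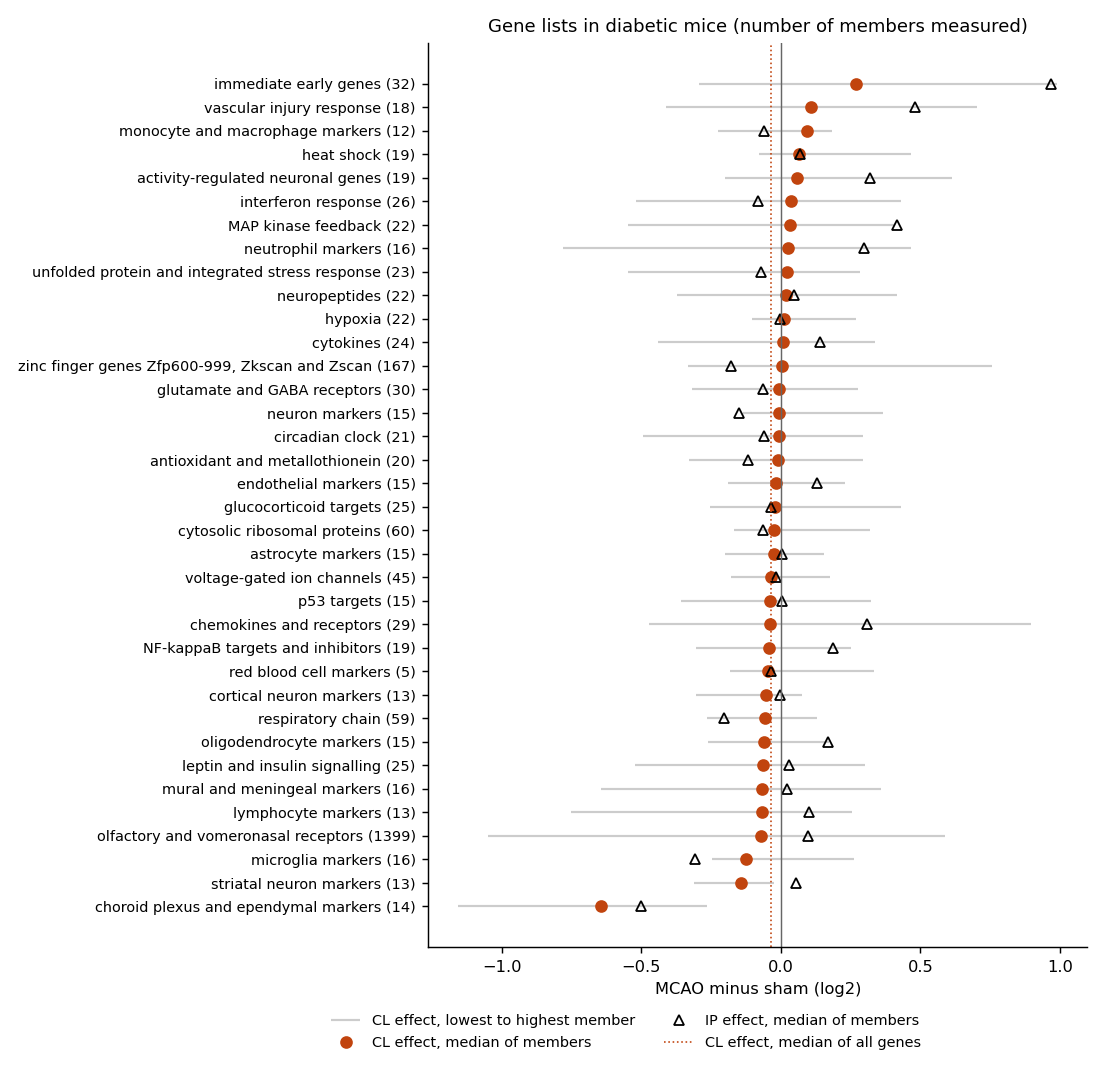
Difference between MCAO and sham mice (log2) for 36 gene lists, with the median of the members in the CL (orange) and IP (open triangles) hemisphere and the range of the CL differences as a grey line. The immediate early genes have the highest CL median, 0.27, with an IP median of 0.97, and the choroid plexus and ependymal markers the lowest, -0.64.

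Markers of cell types and regions were used to see whether the dissected pieces were alike. Choroid plexus and ependymal markers varied most. Ttr, the thyroxine carrier made by the choroid plexus, was at 13.15, 13.25, 9.94, 13.28, 5.92, 12.61, 5.64 and 11.03 in MCAO mice and at 7.47, 13.24, 13.21 and 13.01 in sham mice. High and low values thus occurred in both groups, and the difference of -1.13 had a confidence interval of -4.52 to 2.26. Kl (-1.15) and Folr1 (-1.09) followed the same mice. All 14 markers had a difference below 0, where 60.2% of all genes had one. The mean of the list ran from 5.43 to 8.31 in MCAO mice and from 5.75 to 8.19 in sham mice. In bulk tissue fewer cells of a type and less RNA per cell cannot be told apart.

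All 13 striatal neuron markers had a difference below 0, where 60.2% of all genes had one. Their median was -0.14, though 2 turned positive after centring. The mean of the list ranged from 9.16, in MCAO mouse 1, to 10.04 in MCAO mice and from 9.64 to 10.14 in sham mice. Ppp1r1b, the dopamine-regulated phosphatase inhibitor of striatal neurons, was lowest in MCAO mouse 1, at 10.30, and differed by -0.23, and Six3 differed by -0.31. The medians of the astrocyte, oligodendrocyte, endothelial, neuron and cortical neuron markers lay between -0.06 and -0.01, with Neurod6 at -0.30. The 16 microglia markers had a median of -0.12 (-0.09 after quantile normalization), and Selplg was lower in all MCAO mice (8.96 to 9.10) than in all sham mice (9.11 to 9.43), by 0.21 with an adjusted p of 0.999. Such separation was seen in 0.22% of all genes. Map2, a dendritic protein, was at 11.70 in MCAO mouse 4 and between 10.39 and 10.56 in the other MCAO mice.

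**Figure D4:**
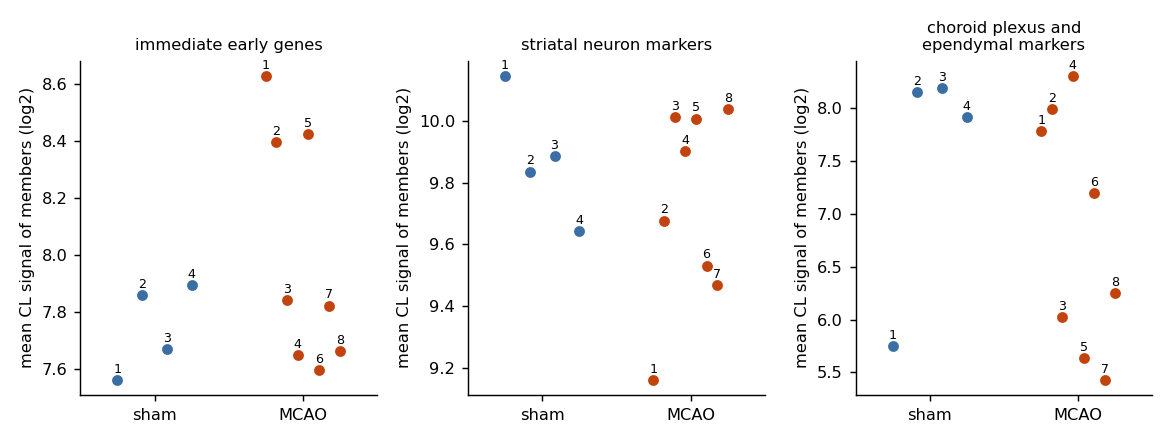
Mean CL signal (log2) of 3 gene lists in each mouse, numbered within sham (blue) and MCAO (orange) mice. MCAO mice 1, 2 and 5 are above all others in the immediate early genes, between 8.40 and 8.63, whereas the choroid plexus and ependymal markers spread from 5.43 to 8.31 with both groups overlapping.

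The IP hemisphere of the same 12 mice gave the scale against which these CL values can be read. There 741 genes (3.8%) were called between MCAO and sham mice, 345 higher (1.77%) and 396 lower (2.03%), among them 19 of the 32 immediate early genes, all higher. Without adjustment 5.22% of genes were higher and 8.38% lower at a p under 0.05. Npas4 differed by 3.96 on the IP side and 0.61 on the CL side, Fos by 3.02 and 0.59, Fosb by 2.93 and 0.63, Ccn1 by 2.83 and 0.66, and Hspa1a by 3.00 and 0.47. In MCAO mouse 5 Npas4 was at 11.48 in the CL and 11.05 in the IP hemisphere, Fosb at 9.55 and 9.50, and Hspa1a at 7.44 and 7.91, so that its hemispheres were nearly level in these genes. In MCAO mouse 8, with the lowest IP value of Npas4 (9.76), the CL value was 6.49, the lowest of all 12.

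The difference between the hemispheres was tested in 1 model with the mouse as a block. No gene passed 0.25, the smallest adjusted p being 0.258, although 1912 genes (9.8%) had an unadjusted p under 0.05, 4.89% with a larger and 4.92% with a smaller effect in the IP hemisphere. The 5 genes with the smallest p were Kcnq1ot1 (IP effect minus CL effect 0.95), Zkscan4 (-1.59), Ccn1 (2.18), Nyx (1.05) and Morc1 (1.10). For Npas4 the IP effect exceeded the CL effect by 3.35 (SE 0.81, adjusted p = 0.297) and for Fos by 2.43 (SE 0.54, adjusted p = 0.259). Without MCAO mouse 5 the number called was 145, and without MCAO mouse 8 it was 127, while 6 of the 12 fits that left out 1 mouse stayed at 0. With all mice kept, a trended and robust prior gave 547 and a filter on the standard deviation 28, so the count of 0 depended on these choices as well. In simulated data with the same mix of changed genes, this test recovered 70% of genes changed by 1 and 28% of those changed by 0.5. These rates hold for that mix only.

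No gene was called for a different CL effect of MCAO between diabetic mice and the 2 other groups compared here. In simulated data with the same mix of changed genes, a change of 1 was recovered in 84% of genes against old mice and in 16% against young males. The count against males therefore says little, and the 84% holds for that mix only. Against 18-month-old males, 0 of 19505 genes were called and 733 had an unadjusted p under 0.05, a share of 3.76% (1.34% higher and 2.41% lower in diabetic mice). Within the old mice 1 gene was called between the CL hemispheres of MCAO and sham mice (0.00513%). The 5 genes with the smallest p were Hmx3 (diabetic minus old -1.12), Oosp2 (-0.80), Tas2r123 (-0.71), Thegl (-1.23) and 2310057J18Rik (1.11), all with an adjusted p of 0.542 and with a signal between the 0.718 and the 21.7 percentile. Npas4 differed by -0.13 (SE 1.23) between the 2 CL effects. In old mice 2 of 8 MCAO mice had CL Npas4 above all sham mice, with a range of 6.30 to 11.13 in MCAO and 6.43 to 8.54 in sham mice. Fos ranged there from 7.14 to 10.10 and from 7.12 to 7.53, with 6 of 8 MCAO mice above all sham mice. In young males Npas4 was above all sham mice in 5 of 8 MCAO mice, Fos in 6 and Apold1 in 8. The male counts keep the 2 arrays that stood apart, and also the ischemic males that the paper removed after its quality control. For old and young male mice the share of all genes with such an order was not counted, so these counts only describe the genes. The median CL difference of the 32 immediate early genes was 0.27 in diabetic mice, 0.26 in old mice and 0.41 in 10 of the males, leaving out the 2 whose arrays stood apart. The signal scales of the conditions were set separately, and levels are therefore not compared between them.

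Against young males, which were run in an earlier set of experiments, 0 genes were called and 145 had an unadjusted p under 0.05 (0.743%). Without male MCAO mouse 3 and male sham mouse 1, whose arrays stood apart, that number was 772 (3.96%). This choice differs from that of the paper, which removed 2 ischemic males after its quality control and kept all sham males. The 5 genes with the smallest p were Prl8a6 (diabetic minus male 0.94), Thegl (-1.06), Adamts5 (-1.25), BC006965 (1.13) and Fam71f1 (-0.88), all with an adjusted p of 0.9995. Without the same 2 arrays Adamts5 passed the threshold (-1.20, adjusted p = 0.0965), with a CL effect of 0.34 in the remaining males. Ccl2, which was higher in all diabetic MCAO mice, differed by -0.41 between MCAO and sham CL hemispheres of old mice and by -0.06 in males. Without the 2 male arrays the male difference turned to 0.38, and the contrast with diabetic mice went from 0.95 to 0.52. None of these contrasts was called.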

How the data were processed

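The authors hybridised RNA to Clariom S Mouse arrays and deposited log2 values after RMA (background correction, quantile normalization and summarisation), each condition on its own, with Affymetrix Expression Console named in the submitters' notes. In the diabetic and old columns 8800 of 29129 probe sets were displaced by 3 rows against the probe names. This block was moved back, after which its correlation with male arrays was 0.97 (diabetic) and 0.971 (old), against 0.167 and 0.168 before. Of the probe sets 19572 carried 1 symbol and 9557 none. The probe set with the highest mean was kept per symbol, giving 19505 genes. limma 3.58.1 (R 4.3.3) was fitted to the 12 CL arrays, with Benjamini-Hochberg adjustment over all genes and calls at 0.25 (residual degrees of freedom 10, prior 4.39). The fits of all 4 comparisons were tested on simulated data. Alternatives changed the threshold, filters, prior, probe choice, scaling, array weights, block and mice. Each mouse is 1 replicate, and the number of arrays limits the precision. Named genes were those of smallest p per direction, per list and per comparison, and a set of stroke genes. Motif genes were chosen after their values were seen. Members and lists were chosen with earlier results of these data known. Female arrays were not used.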

Additional observations from a re-analysis of the deposited data

Results flagged for a closer look

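Among 154 groups of values (77 named genes, MCAO and sham mice apart), 15 held 1 mouse far from the rest, by a gap that was large against the range of its group. Chance alone flags about 1 group in 20. Sham mouse 1 accounted for 5, all low: Ttr at 7.47 (the other sham mice 13.01 to 13.24), Kl at 6.87, Folr1 at 6.15, Igfbp2 at 8.75 and Tas2r123 at 2.25. MCAO mouse 1 accounted for 3: Gadd45b at 8.35 and Thegl at 3.23, both highest, and Ppp1r1b at 10.3, lowest. Sham mouse 2 was highest for Rgs1 at 4.39, Dnajb1 at 9.22 and Vmn2r61, a vomeronasal receptor gene, at 4.24. Sham mouse 3 was highest for Morc1 at 3.97 and sham mouse 4 for Ccr8 at 3.65. MCAO mouse 5 was lowest for Gzma at 3.37, and MCAO mouse 4 was highest for Map2 at 11.7. Npas4, Fos and Fosb were not among these, since 3 MCAO mice were high together.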

How the results depend on the processing

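The count of 4 called genes became 0 at an adjusted p under 0.05, with dim genes left out, after quantile normalization, after centring, with 24 arrays and with the replicate number as a block, and 2 with the filter on the standard deviation or a trended and robust prior. It was 4 with every probe set and 5 with array weights. Leaving out 1 mouse gave 0 to 13 genes, 13 without sham mouse 1, 2 without MCAO mouse 5, 1 without sham mouse 2, and 0 without MCAO mouse 2, 3, 6 or 8 or sham mouse 3 or 4. The IP minus CL count of 0 rose to 547 with a trended and robust prior and to 28 with the standard deviation filter. It was 3 when the mouse was not used as a block, so that the pairing of the hemispheres was ignored. Fits without 1 mouse gave 0 to 145 (145 without MCAO mouse 5, 127 without MCAO mouse 8, 22 without MCAO mouse 1). Leaving out MCAO mouse 5 and sham mouse 4 together, chosen after seeing the data, gave 0 and 17. The counts against old mice were 0 to 3 without 1 mouse (3 without sham mouse 2, 2 without MCAO mouse 1 or sham mouse 3), and 0 with a trended and robust prior. Against males the count became 1 without male MCAO mouse 3 and male sham mouse 1 and stayed 0 without each diabetic mouse. The causes were not tested. Same-numbered MCAO and sham mice shared only a number (correlations of -0.139 to 0.0577). Of 77 named genes 74 kept their direction in every setting in which they were fitted. Many of them were named for a small p in the same data, and the settings refit mostly the same arrays. A kept direction is therefore no test of stability, and the share over all genes was not counted. When 1 mouse was left out S100a8 ranged from -0.27 to 0.30 and Il1b from -0.118 to 0.18, while Ttr stayed between -2.55 and -0.42. S100a8 turned to 0.047 after quantile normalization and 0.0133 after centring, and with the replicate block S100a8 was 0.252, Il1b -0.13 and Ttr 0.673.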
